A study of Mus musculus with 12 samples.

Results

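The regulators of G protein signalling (RGS) described here are 10 genes, Rgs1, Rgs2, Rgs3, Rgs4, Rgs5, Rgs10, Rgs14, Rgs16, Rgs18 and Rgs19, chosen by name from the array's gene names and followed in mouse aorta. All 10 had a probe, 17 probes in all of the 55681 probes other than controls, and 9 of the 10 entered the test among 22761 genes. Rgs1 did not, because its single probe was well above background on 1 array of 12. The 12 one-colour microarrays came from male mice labelled with strains 129S5/SvEvBrd, C57BL6 and SJL, in 4 groups of 3. WT mice before challenge and WT mice at day 3 were homozygous for the floxed Socs3 allele (Socs3 fl/fl), backcrossed to C57BL/6J, and lacked SM22-Cre. Mice labelled smSocs3-KO, before challenge and at day 3, carried the same floxed alleles with SM22-Cre, a Cre recombinase driven by a smooth muscle promoter, which directs a deletion to smooth muscle. Whether other cells of the aorta keep the gene was not tested. The day 3 groups had received β-aminopropionitrile (BAPN, 150 mg/kg/day), which blocks collagen and elastin cross-linking, together with angiotensin II (AngII, 1000 ng/kg/min) from minipumps for 3 days. This infusion is a model of aortic dissection, and the groups before challenge had none. The age of the mice, and whether an array held RNA of 1 mouse, are not given in the sources used here, so p-values measure the spread between these arrays.

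RGS proteins end signalling by G protein-coupled receptors. A receptor such as the AngII type 1 receptor loads the alpha subunit of a G protein with GTP, and an RGS domain bound to that subunit speeds up the hydrolysis of GTP, which shuts the signal off. In the vessel wall Rgs2, Rgs4 and Rgs5 are known as brakes on contractile signalling, whereas Rgs1, Rgs10, Rgs14, Rgs16, Rgs18 and Rgs19 have been studied largely in blood and immune cells or in brain.

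Levels are log2 of the processed signal of a probe minus the array's 75th percentile, so that 0 is the brightness of the spot at that percentile, and each difference is a difference of these levels. The share of spots well above background was 55.4% to 61.2% per array. All 6 WT arrays and smSocs3-KO replicate 1 before challenge lay on 1 slide, and the other 5 arrays lay on another. Socs3, the gene targeted in the mice labelled smSocs3-KO, was not lower on their arrays. Before challenge its level was 0.15, 0.17 and 0.58 in WT and 0.10, 0.97 and 1.29 in mice labelled smSocs3-KO, and at day 3 it was 2.01, 2.13 and 0.47 against 3.10, 2.08 and 3.93. Whether the Socs3 probe lies in the deleted part is not given in the sources used here, and every direction below that involves these mice rests on their label. The WT array of replicate 4 at day 3 stood apart from the other 2 of its group, with Socs3 at 0.47 and the mean level of 8 leukocyte markers at 0.16 against 1.68 and 2.01.

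Across both genotypes together, 5 of the 9 tested members rose after challenge and none fell (limma with Benjamini-Hochberg adjustment over all genes, adjusted p under 0.05). The 5 were Rgs19, Rgs14, Rgs10, Rgs18 and Rgs16, the last with no WT array well above background, so that its call rests on the mice labelled smSocs3-KO. Of all genes, 22.9% passed this test, with 12.5% of all genes rising. The median log2 difference of the 9 members was 0.70, against -0.08 for all genes. The members were chosen with earlier results of these data known, so this contrast is descriptive. Of the 11 other RGS genes 7 were tested, with a median of -0.28, and 1 fell and none rose. Scaling to the array median in place of the 75th percentile raised the median of all genes from -0.08 to 0.16 and the share of rises among all calls from 54.8% to 83.6%. Relative to the median of all genes the called members differed by 0.78 (Rgs10), 0.99 (Rgs14), 1.16 (Rgs18), 1.20 (Rgs19) and, as a fitted value, 2.07 (Rgs16). In WT mice alone 1 member, Rgs19, rose, with 4.70% of all genes called and 3.53% rising. The share of rises among these calls was 75% and became 91.7% with the array median and 59.6% with normexp background correction and quantile normalization. In mice labelled smSocs3-KO alone 1 member, Rgs16, rose, with 2.41% of all genes called and 1.57% rising, and rises went from 65.1% to 89.9% of the calls with the array median. Before challenge no member was called between genotypes (limma, 0.0308% of all genes called), and at an unadjusted p under 0.05 none of the 9 passed either, with 4.37% of all genes. At day 3 Rgs16 alone was called between genotypes, with 1.09% of all genes called and 0.905% higher in mice labelled smSocs3-KO. Rises made up 83.4% of those calls, 94.1% with the array median, 54.8% without WT replicate 4 at day 3 and 68.4% without smSocs3-KO replicate 1 before challenge. These comparisons share arrays: the day 3 arrays of mice labelled smSocs3-KO enter both calls of Rgs16. The vascular members Rgs2, Rgs4 and Rgs5, and Rgs3, passed the test in no comparison.

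**Figure D1:**
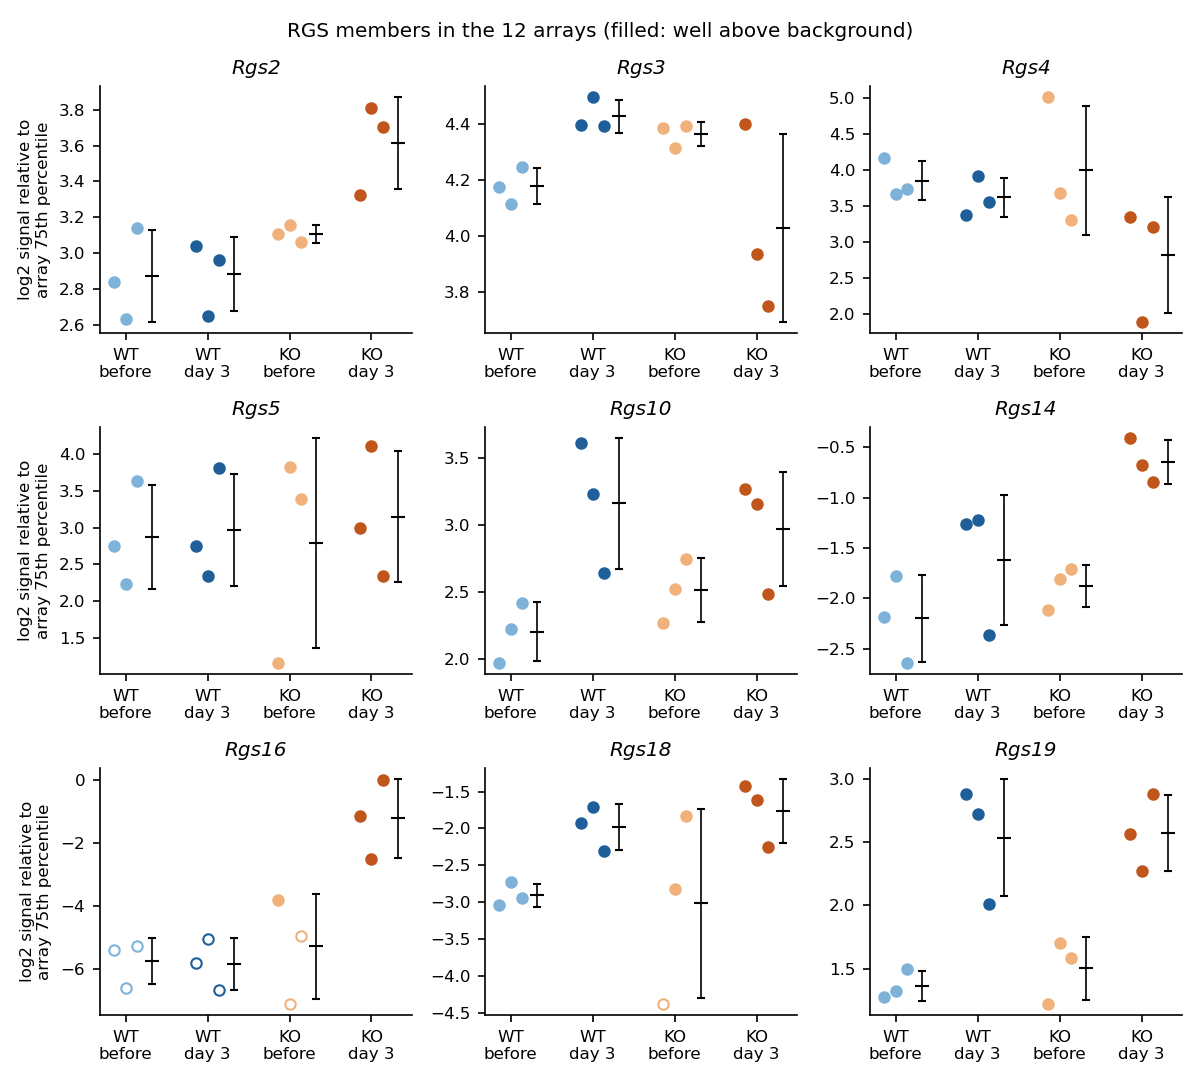
Level of each tested member on every array (y axis, log2 signal relative to the array's 75th percentile, with its own range in each panel) by group (x axis; KO is the label smSocs3-KO), with the mean and SD of the 3 arrays in black. Filled points were well above background. Rgs19 lies higher at day 3 than before in both genotypes, and Rgs16 is well above background on all 3 arrays of mice labelled smSocs3-KO at day 3 and on no WT array.

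Rgs16, an inhibitor of Gi and Gq signalling whose gene is induced in activated lymphocytes, had the widest range of any member. Its 60-base probe lies on chromosome 1 at chr1:155592244-155592303 (mm9, plus strand). The level was -5.40, -6.61 and -5.27 in WT mice before challenge and -5.82, -5.05 and -6.69 at day 3. None of these 6 values was well above background. In mice labelled smSocs3-KO it was -3.81, -7.12 and -4.95 before challenge, of which only the first was well above background, and -1.14, -2.50 and -0.0052 at day 3, all 3 well above background. The 3 arrays at day 3 of these mice lay above the other 9 arrays. At the study's own threshold, p under 0.01 with a fold above 4 or below 0.25, Rgs16 was the only member to pass, in mice labelled smSocs3-KO after challenge (1.56% of all genes passed) and between genotypes at day 3 (1.09%).

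Rgs16 entered the test only through the group of mice labelled smSocs3-KO at day 3, the group in which it was high, so its calls are not independent of that filter. Without the filter on dim probes the adjusted p was 0.0622 between genotypes at day 3 and 0.0691 for the response of mice labelled smSocs3-KO. At day 3 the fitted log2 difference of Rgs16 between genotypes was 4.63 (adjusted p = 0.0326), with no WT array well above background. With this scaling a bound on the difference of the means was 9.45-fold, which was not itself tested. The bound sets the mean of mice labelled smSocs3-KO, -1.22 ± 1.25 (SD, n = 3), against the lowest signal well above background on the WT arrays. The measured WT mean was -5.85 ± 0.82 (SD, n = 3). Among mice labelled smSocs3-KO the fitted log2 difference between day 3 and before challenge was 4.08 (SE 0.84, adjusted p = 0.0393), with a mean before challenge of -5.30 ± 1.68 (SD, n = 3) that was well above background on 1 array of 3, and no bound is given. In WT mice neither group had an array well above background, and no fold is given, nor a difference between the genotypes' responses. No gene passed the adjusted test of that interaction (limma), and 1260 genes, 5.54%, had an unadjusted p under 0.05.

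The genotype call for Rgs16 at day 3 was lost with the slide as a fixed block (log2 difference 6.86, SE 1.35, adjusted p = 0.222) and as a random block (5.64, adjusted p = 0.211). All WT arrays were on 1 slide and all day 3 arrays of mice labelled smSocs3-KO on the other. Within a slide this comparison therefore had no value. The slide term of the fixed block rests on smSocs3-KO replicate 1 before challenge, the only array of these mice on the WT slide. Its Rgs16 level was -3.81, against -7.12 and -4.95 on replicates 3 and 4 of its group, which were not well above background. Within the second slide the rise in mice labelled smSocs3-KO was 4.82 (SE 0.89, adjusted p = 0.0916). The call of that rise was lost in 8 of 12 fits that each left out 1 array, namely each WT replicate before challenge, each smSocs3-KO replicate before challenge, and smSocs3-KO replicates 2 and 5 at day 3 (adjusted p up to 0.127), while the difference stayed between 3.16 and 4.82. The genotype call at day 3 was lost in 7 of 12, without each WT replicate before challenge, WT replicates 1 and 3 at day 3, or smSocs3-KO replicates 2 and 5 at day 3 (adjusted p up to 0.126). With normexp background correction, an offset of 50 and quantile normalization, both differences were smaller. They were 1.64 (adjusted p = 0.0276) for the rise and 1.65 (adjusted p = 0.0326) between genotypes. Quantile normalization of the processed signal alone gave 4.11 and 4.80. The call over both genotypes (adjusted p = 0.0366) was kept in 4 of 12 fits without 1 array, those without WT replicate 4 at day 3, smSocs3-KO replicates 1 or 3 before challenge, or smSocs3-KO replicate 3 at day 3 (adjusted p up to 0.0865 in the rest).

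**Figure D2:**
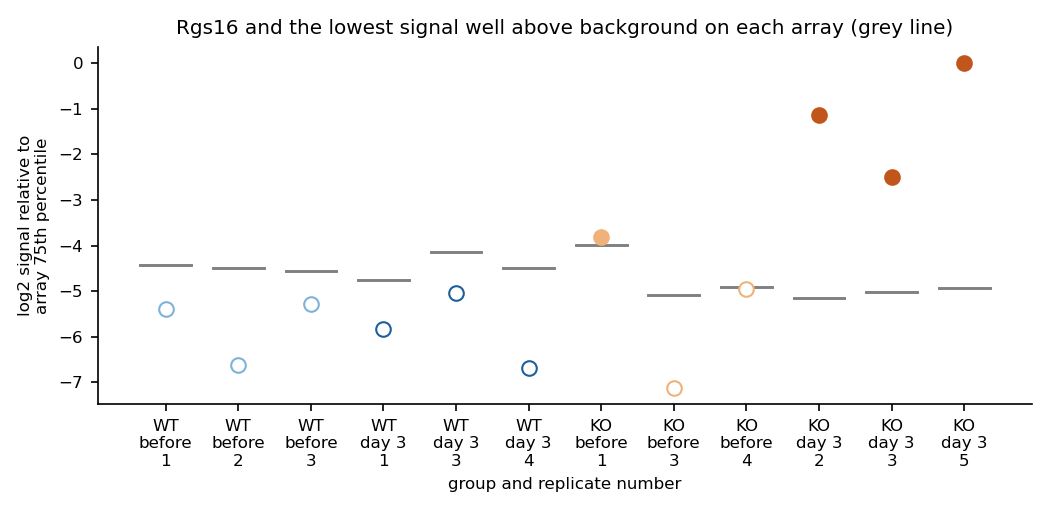
Level of Rgs16 on each of the 12 arrays (y axis, log2 signal relative to the array's 75th percentile) by group and replicate number (x axis). The grey line is the lowest signal well above background on that array, and filled points were themselves well above background. The 6 WT points lie under their lines, and the 3 points of mice labelled smSocs3-KO at day 3 lie at -2.50 or higher.

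The RefSeq promoter window of Rgs16, 250 bases before to 50 bases after the start site (chr1:153740103-153740402, GRCm38.p6, plus strand), is shown because this member moved most. The 50 bases after the start are in capitals. It holds 22 CG pairs and is 66% G or C.
Rgs16: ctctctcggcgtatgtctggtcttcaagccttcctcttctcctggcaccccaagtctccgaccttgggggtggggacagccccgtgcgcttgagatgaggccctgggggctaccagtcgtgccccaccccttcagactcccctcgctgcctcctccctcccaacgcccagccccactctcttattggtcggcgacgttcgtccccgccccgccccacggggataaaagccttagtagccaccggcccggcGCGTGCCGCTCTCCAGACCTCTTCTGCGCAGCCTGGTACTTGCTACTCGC

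Rgs19, also known as GAIP, a regulator that binds the inhibitory Gi class of alpha subunits, was the only member called in WT mice alone, and it was called over both genotypes as well. Its brightest probe lies at chr2:181423128-181423187 (mm9, minus strand). The level in WT mice was 1.28, 1.32 and 1.50 before challenge and 2.88, 2.72 and 2.01 at day 3. Mice labelled smSocs3-KO had 1.22, 1.70 and 1.58 before challenge and 2.56, 2.27 and 2.88 at day 3. The groups did not overlap in either genotype, and the lowest day 3 value was that of WT replicate 4. Overlap was judged on the brightest kept probe of each gene. Groups that did not overlap, with day 3 higher, were found in WT mice for 4 of the 9 members (Rgs3, Rgs10, Rgs18 and Rgs19) and 20.0% of all genes. The same held in mice labelled smSocs3-KO for 4 of 9 (Rgs2, Rgs14, Rgs16 and Rgs19) and 12.6% of all genes.

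The log2 difference of Rgs19 was 1.17 in WT mice (SE 0.25, a 2.25-fold rise, adjusted p = 0.0347) and 1.07 in mice labelled smSocs3-KO (SE 0.25, adjusted p = 0.0509), and the difference between these responses was -0.10 (95% interval -0.87 to 0.67). Over both genotypes the rise was 1.12 (SE 0.17, 2.17-fold, adjusted p = 0.00551). The other 2 probes of the gene gave 1.41 (adjusted p = 0.0364) and 0.97 (adjusted p = 0.0796) in WT mice and 1.44 (adjusted p = 0.0324) and 1.16 (adjusted p = 0.0656) in mice labelled smSocs3-KO, with p-values adjusted over all kept probes. The rise over both genotypes passed the test in each of 12 fits without 1 array, with adjusted p from 0.000417 to 0.0202. The call in WT mice alone was lost in 6 of 12, without each WT replicate before challenge, WT replicates 1 and 3 at day 3, or smSocs3-KO replicate 4 before challenge (adjusted p up to 0.160), and was kept without WT replicate 4 at day 3 (1.43, adjusted p = 0.00302).

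Rgs10, a small regulator known for restraining macrophages and microglia, rose over both genotypes. Its probe lies at chr7:135517256-135517315 (mm9, minus strand). In WT mice the level was 1.97, 2.23 and 2.42 before challenge and 3.61, 3.23 and 2.65 at day 3, with no overlap. Mice labelled smSocs3-KO had 2.27, 2.52 and 2.75 before challenge and 3.27, 3.16 and 2.48 at day 3, and replicate 5 at day 3 lay below 2 of the 3 earlier values. The rise over both genotypes was 0.70 (SE 0.20, 1.63-fold, adjusted p = 0.0297). By genotype it was 0.96 (adjusted p = 0.0697) in WT mice and 0.45 (adjusted p = 0.332) in mice labelled smSocs3-KO. Of 12 fits without 1 array, 5 kept the call over both genotypes. The call was lost without WT replicates 1 or 2 before challenge, WT replicates 1 or 3 at day 3, smSocs3-KO replicate 1 before challenge, or smSocs3-KO replicates 2 or 3 at day 3 (adjusted p up to 0.0773).

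The promoter windows of Rgs10 and Rgs19, the other called members with an entry in the RefSeq table, are shown for comparison with that of Rgs16, again with the 50 bases after the start in capitals. The window of Rgs10 is chr7:128418123-128418422 (GRCm38.p6, minus strand), and that of the most upstream of 3 Rgs19 start sites is chr2:181693928-181694227 (GRCm38.p6, minus strand).
Rgs10: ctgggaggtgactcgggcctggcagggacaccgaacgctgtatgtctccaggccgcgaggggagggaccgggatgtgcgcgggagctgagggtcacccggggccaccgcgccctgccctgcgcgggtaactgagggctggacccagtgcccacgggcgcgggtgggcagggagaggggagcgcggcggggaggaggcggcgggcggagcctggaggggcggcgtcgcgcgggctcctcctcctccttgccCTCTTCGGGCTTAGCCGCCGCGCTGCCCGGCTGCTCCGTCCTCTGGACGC
Rgs19: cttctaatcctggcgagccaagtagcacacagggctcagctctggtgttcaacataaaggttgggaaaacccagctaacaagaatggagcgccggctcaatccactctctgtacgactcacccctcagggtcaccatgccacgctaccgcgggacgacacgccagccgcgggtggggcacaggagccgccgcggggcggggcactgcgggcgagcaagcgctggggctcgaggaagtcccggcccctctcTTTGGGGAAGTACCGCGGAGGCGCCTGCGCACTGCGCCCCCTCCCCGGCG

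The Rgs10 window is 76% G or C with 34 CG pairs and the printed Rgs19 window 66.7% with 27, and the other Rgs19 windows are 72.7% with 37 and 53.3% with 4. The windows of Rgs3 (49.7% and 58.7%), Rgs4 (53%) and Rgs5 (52.3%) and that of Rgs2 (70%) complete the set, against a median of 52.7% G or C over the 32851 windows of the table. Windows were found for 7 of the 10 members, 10 windows in all, and not for Rgs1, Rgs14 and Rgs18. On both strands they were searched for TGACGTCA (the cAMP response element), TGANTCA (AP-1) and TTCNNNGAA (STAT). None of the 10 windows held any of them, and of all windows 1.79%, 7.81% and 8.3% did.

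Rgs14, which combines an RGS domain with a second Gi-binding motif and a Ras-binding region, rose over both genotypes by 0.91 (SE 0.22, 1.88-fold, adjusted p = 0.0185). Its probe lies at chr13:55485762-55485821 (mm9, plus strand). In WT mice the level was -2.18, -1.78 and -2.64 before challenge and -1.26, -1.23 and -2.36 at day 3, and replicate 4 at day 3 lay within the range before challenge. In mice labelled smSocs3-KO it was -2.11, -1.81 and -1.71 before challenge and -0.41, -0.67 and -0.84 at day 3. These last 3 arrays lay above all others. The difference was 1.23 (SE 0.32, adjusted p = 0.0660) in mice labelled smSocs3-KO and 0.58 (SE 0.32, adjusted p = 0.260) in WT mice, and that between genotypes at day 3 was 0.97 (SE 0.32, adjusted p = 0.174). Without WT replicate 1 at day 3 the rise over both genotypes no longer passed the test (adjusted p = 0.0513), and without any other array it did. Without WT replicate 4 at day 3 the WT response alone passed for Rgs14 (0.96, adjusted p = 0.0309) and Rgs10 (1.21, adjusted p = 0.0156).

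Rgs18, the regulator typical of platelets and megakaryocytes, was the weakest call. Its probe lies at chr1:146600137-146600196 (mm9, minus strand), on the same chromosome as those of Rgs1, Rgs2, Rgs4, Rgs5 and Rgs16. The level in WT mice was -3.03, -2.73 and -2.95 before challenge and -1.92, -1.71 and -2.31 at day 3, with no overlap. Values in mice labelled smSocs3-KO were -4.38, -2.82 and -1.84 before challenge and -1.42, -1.62 and -2.25 at day 3, which overlapped, and the first of these values was not well above background. The rise over both genotypes was 1.09 (SE 0.36, 2.12-fold, adjusted p = 0.0499). It was called in 3 of 12 fits without 1 array, those without WT replicate 4 at day 3 or smSocs3-KO replicates 1 or 4 before challenge, and missed the threshold in the other 9 (adjusted p up to 0.105). By genotype the difference was 0.92 (adjusted p = 0.264) in WT mice and 1.25 (adjusted p = 0.169) in mice labelled smSocs3-KO.

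Rgs2, the Gq-selective brake whose loss raises blood pressure in mice, moved little in WT mice. Its brighter probe lies at chr1:145848830-145848889 (mm9, minus strand). The level was 2.84, 2.63 and 3.14 before and 3.04, 2.65 and 2.96 at day 3 in WT mice, and 3.11, 3.16 and 3.06 before and 3.32, 3.81 and 3.70 at day 3 in mice labelled smSocs3-KO. All 3 arrays of the last group lay above the other 9. The difference between genotypes at day 3 was 0.73 (SE 0.19, 95% interval 0.31 to 1.15), with an adjusted p of 0.0994, and the response was 0.50 (adjusted p = 0.146) in mice labelled smSocs3-KO and 0.01 (95% interval -0.41 to 0.43) in WT mice. After normexp background correction with quantile normalization the day 3 difference passed the test (0.73, adjusted p = 0.0302). A much dimmer second probe gave -0.23 in WT mice, of the opposite sign, and 0.25 in mice labelled smSocs3-KO. Between genotypes at day 3 it gave 0.69 (adjusted p = 0.499 over all kept probes), and the groups overlapped. Groups that did not overlap, with mice labelled smSocs3-KO higher, were found at day 3 for Rgs2, Rgs14 and Rgs16, 3 of the 9 members, and for 7.21% of all genes. The reverse, mice labelled smSocs3-KO lower, was found for Rgs4 and 14.3% of all genes.

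Rgs3, a regulator of Gi and Gq with several isoforms, stayed within a narrow band on its brightest probe. This probe lies at chr4:62363993-62364052 (mm9, plus strand). The level was 4.18, 4.11 and 4.25 before and 4.40, 4.50 and 4.39 at day 3 in WT mice, and 4.39, 4.31 and 4.39 before and 4.40, 3.94 and 3.75 at day 3 in mice labelled smSocs3-KO. The difference was 0.25 in WT mice and -0.34 in mice labelled smSocs3-KO, and that between them was -0.58 (SE 0.24, unadjusted p = 0.0333, adjusted p = 0.887). Replicate 2 at day 3 in mice labelled smSocs3-KO did not share the lower values. On the other kept probes of Rgs3 the WT groups overlapped. A probe for another transcript ran from -0.13 to 1.82 over the arrays. It differed by -0.91 between genotypes at day 3 (adjusted p = 0.345 over all kept probes). Its sign was opposite to that of the brightest probe before challenge (-0.18) and over both genotypes (0.14).

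Rgs4, which acts on Gi and Gq and is best known from heart and brain, was read from a probe at chr1:171672488-171672547 (mm9, minus strand). The level was 4.16, 3.66 and 3.73 before and 3.37, 3.91 and 3.56 at day 3 in WT mice. Rgs4 in mice labelled smSocs3-KO was 5.01, 3.67 and 3.30 before and 3.35, 1.89 and 3.21 at day 3. The lowest value was that of replicate 3 at day 3 and the highest that of replicate 1 before challenge. The difference was -1.18 (SE 0.46, adjusted p = 0.158) in mice labelled smSocs3-KO and -0.23 (adjusted p = 0.771) in WT mice. A dimmer second probe gave -0.42 and 0.52, of the opposite sign in WT mice, and neither was called.

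Rgs5, a marker of pericytes and of arterial smooth muscle, was as variable within groups as across them. Its probe lies at chr1:171623021-171623080 (mm9, plus strand). The level was 2.75, 2.23 and 3.63 before and 2.75, 2.34 and 3.81 at day 3 in WT mice, and 1.16, 3.82 and 3.38 before and 3.00, 4.11 and 2.35 at day 3 in mice labelled smSocs3-KO. The SD within a group was 0.71 to 1.43, and the means ran from 2.79 to 3.15. The response was 0.10 (95% interval -1.46 to 1.66) in WT mice and 0.36 (95% interval -1.20 to 1.92) in mice labelled smSocs3-KO. Replicate 1 before challenge in mice labelled smSocs3-KO, the array of these mice that shared a slide with WT, had the lowest Rgs5 and Rgs18 and the highest Rgs4 of all 12 arrays.

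Rgs1, a regulator of chemokine receptor signalling in lymphocytes, was read from a probe at chr1:146091962-146092021 (mm9, minus strand) and was well above background only on smSocs3-KO replicate 3 at day 3, where its level was -4.59. The other 11 arrays ranged from -6.72 to -4.80 and were not well above background, so no fold change is given.

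**Figure D3:**
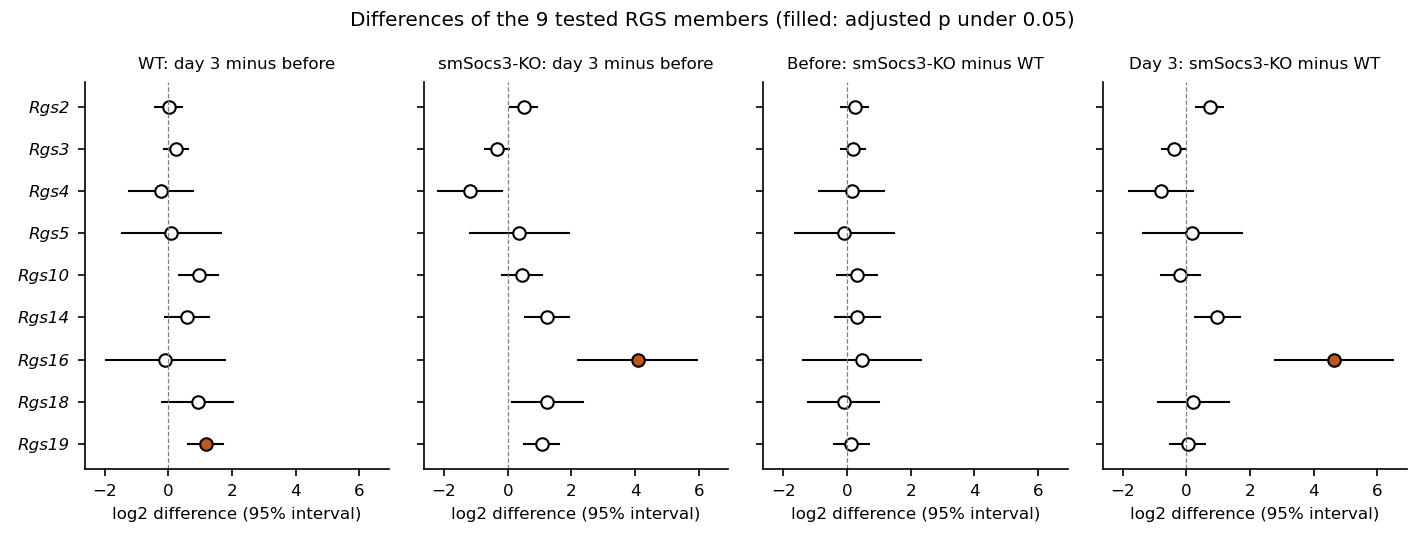
Log2 difference of each tested member (points) with its 95% interval (lines) in 4 comparisons (panels), from 3 arrays in each group. Filled points passed an adjusted p under 0.05, namely Rgs19 in WT mice after challenge (1.17) and Rgs16 in mice labelled smSocs3-KO after challenge (4.08) and between genotypes at day 3 (4.63, a fitted value whose WT side was not well above background).

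Markers of the leukocyte and macrophage lists also rose after challenge, whereas the lymphocyte markers that were called fell. Of all genes 22.9% were called over both genotypes and 12.5% rose, the shares to set beside the list counts here and below. Over both genotypes, 8 of 8 leukocyte markers and 9 of 10 macrophage markers rose, the largest being Cd53 (1.84, adjusted p = 0.0101) and Cd68 (1.78, adjusted p = 0.00707). The mean level of the leukocyte list was -0.05 to 0.14 in WT mice before challenge and 0.16 to 2.01 at day 3, and 0.19 to 0.88 before and 1.97 to 2.65 at day 3 in mice labelled smSocs3-KO. That of the macrophage list was 1.57 to 1.64, 1.88 to 3.30, 1.60 to 2.34 and 3.28 to 3.46 in the same order. All 18 of these markers were tested. Their part in the rise of the RGS members was not tested, and in these bulk samples a change in the number of cells of a type cannot be told apart from a change in RNA per cell.

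**Figure D4:**
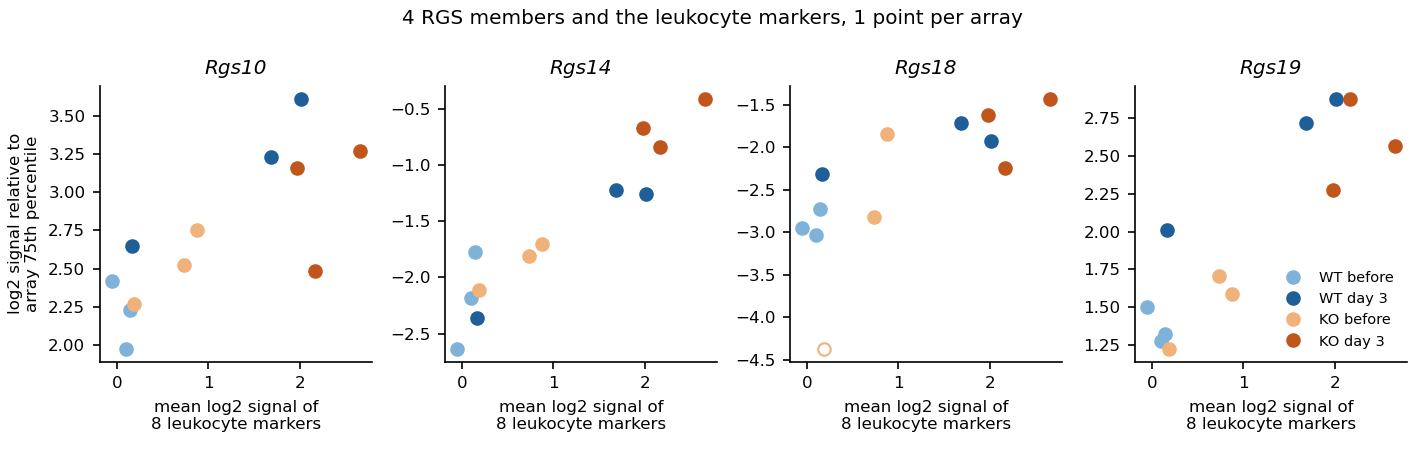
Level of 4 members (y axis, log2 signal relative to the array's 75th percentile) against the mean level of 8 leukocyte markers (x axis, same unit), with 1 point per array coloured by group. WT replicate 4 at day 3 (leukocyte mean 0.16) lies beside the arrays before challenge for Rgs14 (-2.36) and between both sets for Rgs19 (2.01). For Rgs10 (2.65) and Rgs18 (-2.31) that array lies above the WT arrays before challenge. The array of smSocs3-KO replicate 5 at day 3 (leukocyte mean 2.16) lies within the range before challenge for Rgs10 (2.48).

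Of the other cell type lists, 4 of 11 smooth muscle markers fell over both genotypes, the largest being Synpo2 (-1.16, adjusted p = 0.0378), and none rose. The smooth muscle mean was 6.01 to 6.06 in WT mice before and 5.13 to 6.15 at day 3, and 6.03 to 6.26 before and 5.03 to 5.57 at day 3 in mice labelled smSocs3-KO. Of 9 platelet markers tested, 2 rose, the larger being Pf4 (0.72, adjusted p = 0.0158), and the platelet mean was -2.27 to -1.76, -2.07 to -0.99, -2.49 to -1.14 and -1.70 to -0.63 in the same order. Of 7 neutrophil markers 2 rose, led by Mpo (fitted difference 2.01, adjusted p = 0.0142), and Ngp was not well above background on any array. Mpo was well above background on 6 of 12 arrays and on none of WT before challenge. It passed the filter only through WT mice at day 3, the group in which its mean was highest. The fitted response of Mpo was 2.67 (adjusted p = 0.0442) in WT mice and 1.34 (adjusted p = 0.224) in mice labelled smSocs3-KO. Of 9 lymphocyte markers 3 fell, led by Cd3d (-1.53, adjusted p = 0.0157, well above background on 1 of 3 WT arrays at day 3). Between genotypes at day 3 the fibroblast marker Dpt was the only marker called, higher in mice labelled smSocs3-KO (1.97, adjusted p = 0.0249). For pericytes 1 of 8 fell (Notch3, -0.57), for endothelium 1 of 10 rose (Emcn, 0.97), for fibroblasts 2 of 8 rose (the larger Mfap5, 0.73) and for neurons 1 of 6 rose (Tubb3, 2.14), and no adipocyte (0 of 7), striated muscle (0 of 7) or adrenal cortex marker (0 of 2) was called. Lep of fat, Myh1, Myh2 and Myh4 of skeletal muscle, Nefl and Dbh of neurons, and Cyp11a1, Cyp11b1, Cyp11b2 and Hsd3b1 of the adrenal cortex were well above background on no array.

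Of 22 vasoactive and chemotactic receptors tested, 8 rose over both genotypes and 1 fell, beside 22.9% of all genes called and 12.5% rising. Among the rises were those of the leukocyte chemotactic receptors Fpr1 (fitted difference 2.71, adjusted p = 0.00539) and Ccr2 (2.06, adjusted p = 0.0242), and the fall was that of the serotonin receptor Htr2a (-1.06, adjusted p = 0.00912). Agtr1a, the AngII type 1 receptor, was -0.88, -0.95 and -0.62 before and -2.26, -1.57 and -0.76 at day 3 in WT mice. Agtr1a in mice labelled smSocs3-KO was -0.40, 0.21 and -0.06 before and -2.45, -1.82 and -0.04 at day 3. The values overlapped in both genotypes, and the difference over both was -1.04 (SE 0.38, adjusted p = 0.0715). In WT mice alone 1 of the 22 receptors was called (Fpr1), and in mice labelled smSocs3-KO alone 3 were called as higher (Fpr1, C5ar1, 2.03, and P2ry6, 0.86) and Htr2a fell (-1.64). Fpr1 was well above background on 5 of 12 arrays, 0 and 1 in WT mice before challenge and at day 3 and 1 and 3 in mice labelled smSocs3-KO, and it passed the filter only through the last group. Its fitted log2 difference in WT mice was 2.36 (adjusted p = 0.0475). No bound is given, because only 1 WT array was well above background.

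Of 13 G protein alpha subunits, Gnai3, a Gi subunit, rose (0.36, adjusted p = 0.0306) and Gnao1 fell (-0.93, adjusted p = 0.0364) over both genotypes. Gnaq and Gna11, the Gq class through which the AngII type 1 receptor signals, were not called. Of 13 beta and gamma subunits 3 rose and 4 fell, with Gng13 (-1.89, well above background on 9 of 12 arrays), Gng2 (1.13) and Gng8 (-0.73) the largest. In WT mice alone Gnb1 rose (0.80, adjusted p = 0.0355).

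Among the other terminators of receptor signalling, 2 of 7 receptor kinases and arrestins rose and 1 fell over both genotypes. Arrb2, which uncouples and internalises receptors, rose (1.08, adjusted p = 0.0177), Grk5 rose (0.66, adjusted p = 0.0473) and Adrbk2, a receptor kinase, fell (-0.92, adjusted p = 0.00989). Of 24 effectors 2 rose and 5 fell, beside 22.9% of all genes called and 12.5% rising. The largest were Pik3cg (1.04), Adcy2 (a fitted 0.98) and Itpr1 (-0.91). Adcy2, an adenylyl cyclase, was well above background only on the 3 arrays of mice labelled smSocs3-KO at day 3, through which it passed the filter. Its fitted difference from before challenge in these mice was 1.97 (adjusted p = 0.0182). With the main scaling and background subtraction the bound on that difference was 2.07-fold, which was not itself tested. Of the 11 RGS genes outside the 10 members, 7 were tested, 1 fell over both genotypes (Rgs7, -0.68, adjusted p = 0.0225) and none rose. In the difference between genotypes, before challenge and at day 3, no gene of these pathway lists was called.

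For the 3 members with the widest range of group means, the genes nearest in pattern were found by the root mean square difference of levels centred on their mean over the 12 arrays. Rgs14 lay closest to Irf5 (0.13), Arhgap9 (0.17) and Lrmp (0.18), against an SD of 0.67 for Rgs14 itself. Rgs16 lay closest to Entpd3 (0.73), 1700020A23Rik (0.81) and Clec2d (0.93), with its own SD at 2.15. On 8 of the 12 arrays Rgs16 was not well above background, which limits that order. Rgs18 lay closest to Opn3 (0.38), Scamp5 (0.39) and Cend1 (0.39), with its own SD at 0.79. These values describe shared variation of arrays that also share group, slide and scaling.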

How the data were processed

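Gene expression in mouse aorta was measured on 12 one-colour arrays, 3 in each of 4 groups named by the sample labels. The authors deposited scanner files, whose processed signal is a linear intensity after background subtraction (Feature Extraction 10.7.1.1 and mm9 probe positions per the file headers), and a quantile normalized table of intensity values. A spot counted as well above background when it exceeded it by 13 background SDs. The number of arrays limits the precision.

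Control and outlier spots were left out, log2 intensity was scaled to each array's 75th percentile, and spots of a probe were averaged. A probe was kept if some group had it well above background on each of its arrays (32283 of 55681 probes), and each gene was read from its brightest remaining probe (22761 genes). Means of the 4 groups were estimated by limma 3.58.1 (R 4.3.3), and p-values were Benjamini-Hochberg adjusted. In data simulated for the WT response over 22761 genes, 36 of 100 genes changed by 1 log2 unit and 88 of 100 changed by 3 were called, with 9 false calls. The simulated noise was independent, with SDs shuffled among genes and no slide effect or deviating array. These counts therefore do not carry over to the real arrays.

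The members and the gene lists were chosen with earlier results of these data known. By rule, all members, Agtr1a, Socs3, up to 3 of the most changed called genes of each pathway list, and of each cell type list its most changed called marker or those never well above background were named; Gnaq and Gna11 were named after their values were seen. One gene that the rule names is not reported here. Alternatives covered background correction, normalization, scaling, filter, probe choice, variance moderation, samples fitted, slide, replicate number, threshold and each array left out. The alternative named normexp added an offset of 50 before the log2 step and was followed by quantile normalization. Promoters are those of RefSeq (GRCm38.p6).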

Additional observations from a re-analysis of the deposited data

How the results depend on the processing

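The 9 members' signs in the 26 or fewer alternatives of each comparison were kept in 208 of 232 values for the WT response, 227 of 232 for the smSocs3-KO response, 222 of 232 before challenge, 209 of 223 at day 3, 203 of 214 for the interaction and 208 of 214 for the mean response; no value that was called changed sign. Calls changed more often, and except where a value shows it the cause was not tested. Only the rise of Rgs19 over both genotypes was called under every alternative fitted to it except the study's own threshold. Of the members called over both genotypes, Rgs10 was called in 6 of 12 alternatives other than leaving out an array, Rgs14 in 11 of 12, Rgs16 in 9 of 11 and Rgs18 in 7 of 11. With the array numbers as a replicate block, 0 members were called in the WT, smSocs3-KO and day 3 comparisons and 1 over both genotypes. Whether arrays of the same number belong together is not given in the sources used here, and some of them also shared a slide. The r of their deviations was -0.40 to 0.46 over 11 pairs, 4 above 0.1. Of 43 pairs of different number, 8 were above 0.1. Rgs16 and Rgs1 were not well above background on most arrays, which limits their levels.

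The number of members called in the WT response was 1, and it was 0 at the study's threshold, without a filter, with only the compared groups fitted and within the slide, and 2 with trended, robust variances. For the smSocs3-KO response it was 1, and it was 3 with normexp or the array median, 2 with the percentile over probes (chosen after seeing the data), with the mean of probes or with trended variances, and 0 without a filter, with the slide fixed or within it; with probes well above background on all 12 arrays, which leave out Rgs16, the member called was Rgs19, and with the groups alone it was Rgs14. At day 3 it was 1, and it was 2 with normexp and 0 without a filter, with only probes well above background on all 12 arrays, with only the compared groups, and with the slide fixed or random. For the interaction it was 0, and 1 at the study's threshold (Rgs16, from fitted values not well above background in WT mice). Over both genotypes it was 5, and it was 0 at the study's threshold, 3 with quantile normalization, the authors' value table or probes well above background on all 12 arrays, and 2 without a filter. Leaving out 1 array gave 0 to 3 in the WT response, 0 to 3 in the smSocs3-KO response, 0 to 1 at day 3 and 1 to 5 over both genotypes. All genes called in the WT response numbered 1070, and 615 with quantile normalization, 614 with the value table, 10 without a filter, 1785 with trended variances, 2304 and 2040 with the slide fixed and random, and 0 within the slide or with the groups alone. For the smSocs3-KO response they numbered 548, and 841 with the array median, 176 without a filter, 344 with the groups alone, 50 and 284 with the slide fixed and random, 47 within it and 1 with the block. At day 3 they numbered 247, and 70 without a filter, 57 with the groups alone, 0 and 1 with the slide fixed and random and 2 with the block. Before challenge they numbered 7, and 4 with normexp, quantile normalization or the value table, 3 with probes well above background on all 12 arrays, 1 with the slide random or the block and 0 with the slide fixed or within it. Over both genotypes they numbered 5211, and 3358 without a filter and 863 with the block. Without 1 array they ran from 0 to 3667 in the WT response, 38 to 1948 in the smSocs3-KO response, 1 to 14 before challenge, 43 to 604 at day 3, 0 to 10 for the interaction, and 2518 to 6540 over both genotypes, and the highest of the WT, smSocs3-KO, day 3 and mean counts came without WT replicate 4 at day 3, when Rgs10, Rgs14 and Rgs19 were called in the WT response and Rgs14, Rgs16 and Rgs19 in the smSocs3-KO response.

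Signs turned only for differences that were not called. In the fits with the slide fixed, the slide term rests on 1 array, smSocs3-KO replicate 1 before challenge. In the WT response Rgs2 became -0.19 with normexp, -0.16 with quantile normalization and the value table, -0.11 with the mean of probes and -0.14 with the block; Rgs4 became 0.14 with the mean of probes and 0.067 with the block; Rgs5 became -0.038 with normexp, -0.056 with quantile normalization, -0.057 with the value table and -0.53 with the block; Rgs16 became 0.059 with normexp, 0.093 with quantile normalization and the value table and 0.12 with the array median. In the smSocs3-KO response Rgs5 became -0.45 with the slide fixed or within it and -0.0070 with it random. Before challenge Rgs5 became 0.069 with the array median, Rgs18 became 0.093 with normexp and 0.041 with the array median, and Rgs19 became -0.14 with the slide fixed or within it. At day 3, with the slide fixed, Rgs4 became 0.72, Rgs5 -2.26, Rgs18 -1.83 and Rgs19 -0.38, and with it random Rgs5 became -0.92, Rgs18 -0.71 and Rgs19 -0.15; Rgs19 became -0.32 with the block. For the interaction Rgs5 became -0.55 and -0.11 with the slide fixed and random, Rgs18 -0.36 with it fixed and Rgs19 0.041 with the mean of probes. Over both genotypes Rgs3 became 0.19 with the array median and 0.017 with the block, and Rgs5 became -0.18 with the slide fixed. Leaving out 1 array gave ranges that crossed 0 in the WT response for Rgs2 (-0.11 to 0.14), Rgs5 (-0.32 to 0.48) and Rgs16 (-0.52 to 0.33), in the smSocs3-KO response for Rgs5 (-0.45 to 0.88), before challenge for Rgs4 (-0.36 to 0.49), Rgs5 (-0.60 to 0.73), Rgs16 (-0.28 to 1.38) and Rgs18 (-0.70 to 0.57), at day 3 for Rgs5 (-0.30 to 0.60), Rgs10 (-0.45 to 0.049) and Rgs19 (-0.23 to 0.21), for the interaction for Rgs5 (-0.55 to 0.78), Rgs18 (-0.36 to 0.91) and Rgs19 (-0.36 to 0.069), and over both genotypes for Rgs3 (-0.14 to 0.026) and Rgs5 (-0.18 to 0.49).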
